A study of Mus musculus with 8 samples.

Results

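The genes followed here were 9 members of the FGF and HGF systems: the fibroblast growth factor (FGF) ligand genes Fgf1, Fgf2, Fgf7, Fgf9, Fgf10 and Fgf18, the FGF receptor genes Fgfr1 and Fgfr2, and Hgf, which encodes hepatocyte growth factor. They were taken by gene symbol, 9 of the 53801 rows of the count table, and all 9 passed the filter on low counts. RNA was measured in 8 libraries of YFP+ stromal cells from the mouse small intestine, sorted as negative for CD45, a leukocyte marker, and CD31, an endothelial marker. Surface PDGFRα, a platelet-derived growth factor receptor of many gut fibroblasts, separated the groups, with 4 libraries of YFP+PDGFRα- and 4 of YFP+PDGFRα+ cells. Both groups came from LTβRfloxPDGFRα/YFP mice, which carry a floxed lymphotoxin β receptor gene. The labels used here name no age or sex, and no driver of YFP beyond the PDGFRα/YFP of the genotype name. They do not say how many mice went into a library. All 8 libraries come from mice with the floxed allele. The spread behind each p-value is thus that of the sorted libraries and may include technical spread. The comparison asks how the stromal fractions with and without surface PDGFRα differ.

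FGFs are secreted proteins that bind receptor tyrosine kinases together with heparan sulfate. In many organs, mesenchymal cells secrete FGF7 and FGF10, which act on the b splice form of FGFR2 in the overlying epithelium, while the c splice forms of FGFR1 and FGFR2 are typical of mesenchymal cells. HGF is likewise made by mesenchymal cells and acts on the receptor MET, best known in epithelium. Sprouty and Spred proteins, whose genes are often induced by FGF signalling, dampen the pathway below the receptors.

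Library totals ran from 12.9 to 35.1 in units of 1e+06 counts. RNA of the sort marker, Pdgfra, was at 652 ± 124 CPM (counts per 1e+06 of scaled library size, mean ± SD, n = 4) in PDGFRα- and 597 ± 69.2 CPM in PDGFRα+ libraries, with overlapping ranges, so group names here mean the sort labels and not an RNA difference. In bulk RNA, a difference in the share of cells that express a gene cannot be told apart from a difference in RNA per cell.

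The main result was a higher level of Fgfr2 in PDGFRα+ cells, with Fgfr1 at nearly the same level in both fractions. In the edgeR quasi-likelihood test with group alone, 1 of the 9 genes passed an adjusted p of 0.05, Fgfr2 as higher, where 0.243% of all 15643 tested genes passed in either direction and 0.192% as higher. In a fit blocked on replicate number, 3 of the 9 were called, Fgfr2, Fgf10 and Hgf, all higher, where 2.27% of all genes passed, 1.34% as higher and 0.933% as lower. The labels do not say that equal numbers mark shared animals, but the authors' deposited dispersions match a model with the number, and the blocked values are given beside the unpaired ones on that ground. The authors' deposited table calls Fgfr2, Fgf10 and Hgf as higher and none of the other 6, against 2.3% of its genes called higher. DESeq2 called 2 of the 9 without the block, Fgfr2 and Fgf10, against 1.52% of all genes, and 3 with it, against 4.59%. Limma-voom called 1 of the 9, Fgfr2, against 0.192% of all genes. For 4 of the 9, Fgf1, Fgf10, Fgfr2 and Hgf, every PDGFRα+ library lay above every PDGFRα- library, where this held for 2.69% of all genes. The median log2 fold change was 0.03 over the 9 genes and -0.01 over all genes tested.

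**Figure D1:**
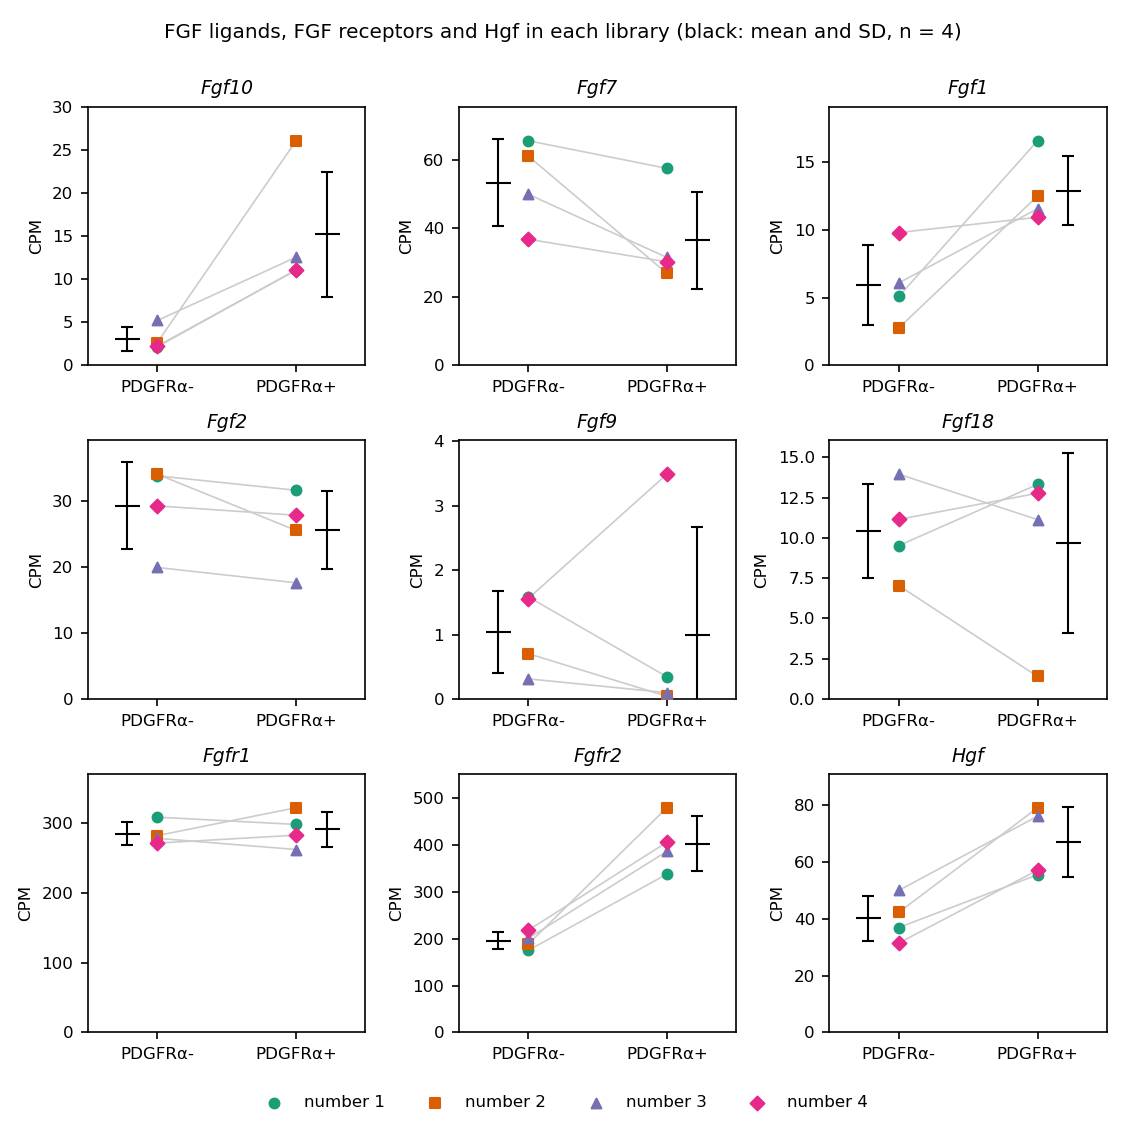
CPM of the 9 genes in each library, on linear axes from 0, with grey lines between libraries of the same number and black bars for the mean and SD of 4 libraries (cut at 0 for Fgf9). Fgf10, Fgf1, Fgfr2 and Hgf lie higher in every PDGFRα+ library than in any PDGFRα- library, while Fgfr1 spans 262 to 322 CPM over all 8.

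Fgfr2 (ENSMUSG00000030849, chromosome 7, 130162451 to 133123350, minus strand, GRCm38) encodes an FGF receptor whose b splice form binds FGF7 and FGF10. It stood at 175, 188, 200 and 218 CPM in libraries 1 to 4 of PDGFRα- cells and at 337, 479, 386 and 406 CPM in libraries 1 to 4 of PDGFRα+ cells. The highest PDGFRα- library thus lay well below the lowest PDGFRα+ library, and PDGFRα+ library 2 was the highest. The means were 195 ± 18.3 and 402 ± 58.8 CPM, 2.06-fold higher in PDGFRα+ cells, with a log2 fold change of 1.04 ± 0.16 (SE), a 95% interval from 0.71 to 1.38 and an edgeR adjusted p of 0.0149. With the block the log2 fold change was 1.04 ± 0.12 and the adjusted p 0.000173 (edgeR). The unpaired call did not hold without PDGFRα- library 2, PDGFRα- library 3 or PDGFRα+ library 3 (edgeR adjusted p = 0.0729, 0.0654 and 0.05002), although the log2 fold change stayed between 0.95 and 1.12 whichever library was left out. Counts per gene do not separate the splice forms. The annotated span of Fgfr2 covers 2960.9 kb and shares 314 exonic bases with Ctbp2 on the same strand, a gene at no more than 3.42 CPM in any library. Whether reads of Ctbp2 entered the count of Fgfr2, or the reverse, was not tested.

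Fgfr1 (ENSMUSG00000031565, chromosome 8, 25513654 to 25575718, plus strand) encodes the other receptor followed here. Its levels were 308, 282, 278 and 271 CPM in libraries 1 to 4 of PDGFRα- cells and 298, 322, 262 and 282 CPM in libraries 1 to 4 of PDGFRα+ cells. These ranges overlap, and the PDGFRα+ library was the higher one in 2 of 4 same-numbered pairs. Its log2 fold change came to 0.03 ± 0.14 (SE, edgeR adjusted p = 0.995). The 95% interval, -0.27 to 0.33, does not reach the interval of Fgfr2. The remaining receptor genes were low. Fgfr3 was at 6.35 ± 2.87 and 7.30 ± 2.74 CPM, and Fgfrl1, which encodes a receptor without a kinase domain, at 5.49 ± 1.97 and 7.34 ± 0.59 CPM in PDGFRα- and PDGFRα+ libraries. Fgfr4 was at 2.34 ± 1.13 and 5.54 ± 1.78 CPM without overlap of the libraries, and none of these 3 passed either test (edgeR adjusted p = 0.967, 0.989 and 0.746 for Fgfrl1, Fgfr3 and Fgfr4 unpaired).

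**Figure D2:**
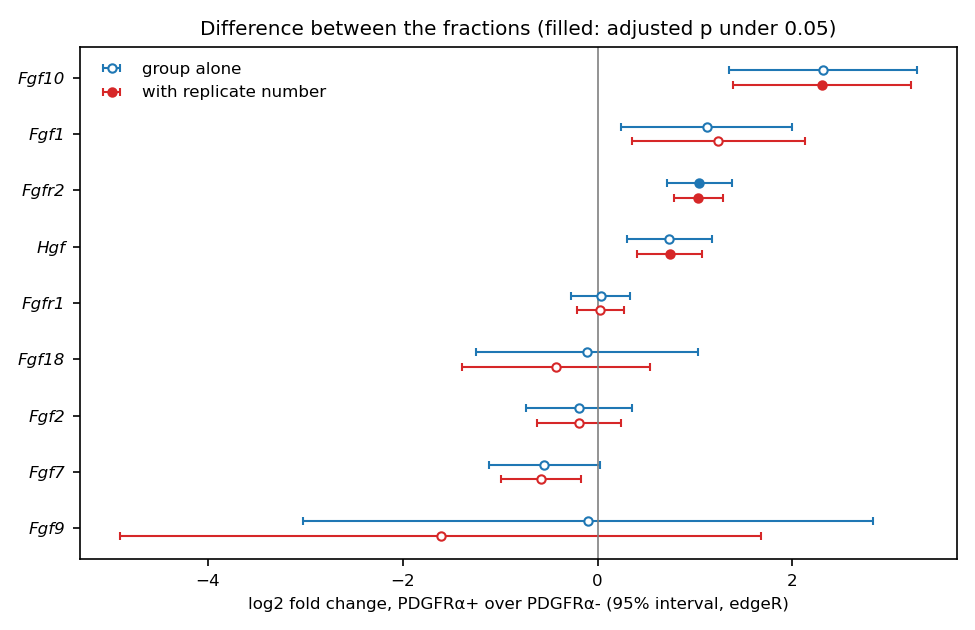
Log2 fold change of PDGFRα+ over PDGFRα- cells for each of the 9 genes, with its 95% interval, from edgeR fitted on group alone and blocked on replicate number. Filled points have an adjusted p under 0.05, which are Fgfr2 in both fits and Fgf10 and Hgf in the blocked fit.

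Among the 7 ligand genes followed in full, Fgf10 had the largest ratio between the group means, while Hgf and Fgf7 differed more in CPM. Fgf10 (ENSMUSG00000021732, chromosome 13, 118669791 to 118792115, plus strand) encodes an FGFR2b ligand needed for the growth of several endodermal organs. It was at 2.16, 2.66, 5.22 and 2.26 CPM in libraries 1 to 4 of PDGFRα- cells, from 45 to 67 counts each. In libraries 1 to 4 of PDGFRα+ cells it was at 11.1, 26.1, 12.6 and 11.1 CPM, from 149 to 638 counts. The groups did not overlap, PDGFRα- library 3 was the highest of its group, and PDGFRα+ library 2 was the highest of all 8. The means were 3.08 ± 1.45 and 15.2 ± 7.31 CPM, 4.95-fold higher in PDGFRα+ cells. Without the block it gave a log2 fold change of 2.32 ± 0.45 (SE), just over the threshold (edgeR adjusted p = 0.0566). With the block Fgf10 rose by 2.30 ± 0.43 on the log2 scale (edgeR adjusted p = 0.00817), a call that did not hold without number 1 (edgeR adjusted p = 0.0535). Without PDGFRα+ library 2 the unpaired log2 fold change was 1.92 (edgeR adjusted p = 0.230). Exons of Fgf10 share 123 bases with Gm16263 on the other strand, a gene at 0.08 to 2.26 CPM in PDGFRα- libraries and at 2.89, 18.9, 2.03 and 5.27 CPM in libraries 1 to 4 of PDGFRα+ cells, highest in the same library as Fgf10. The labels do not state the strand setting of the counting, and whether reads of one gene entered the count of the other was not tested.

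Fgf7 (ENSMUSG00000027208, chromosome 2, 126034658 to 126091185, plus strand), also called keratinocyte growth factor, belongs to the same subfamily as Fgf10 and acts on the same receptor form. Its values ran the other way, at 65.6, 61.1, 49.99 and 36.8 CPM in libraries 1 to 4 of PDGFRα- cells and 57.5, 26.9, 31.5 and 30.2 CPM in libraries 1 to 4 of PDGFRα+ cells. The PDGFRα+ library was the lower one in all 4 same-numbered pairs, as for 10.2% of all tested genes, but the ranges overlapped because PDGFRα+ library 1 lay far above the other 3 of its group. The means were 53.4 ± 12.8 and 36.5 ± 14.1 CPM. The difference did not pass the test, with a log2 fold change of -0.55 ± 0.26 (SE, edgeR adjusted p = 0.752) and, with the block, -0.58 ± 0.19 (edgeR adjusted p = 0.166). Without PDGFRα+ library 1 it was -0.85 (edgeR adjusted p = 0.301). The authors' deposited table lists an adjusted p of 0.0977 for Fgf7.

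Fgf1 and Fgf2 encode the acidic and basic FGFs, which lack a classical signal peptide. Fgf1 (ENSMUSG00000036585, chromosome 18, 38838673 to 38929472, minus strand) was at 5.09, 2.77, 6.08 and 9.80 CPM in libraries 1 to 4 of PDGFRα- cells and 16.6, 12.5, 11.6 and 10.9 CPM in libraries 1 to 4 of PDGFRα+ cells. The groups did not overlap, with PDGFRα- library 4 only just under PDGFRα+ library 4. The log2 fold change was 1.12 ± 0.41 (SE) and did not pass the test in either fit (edgeR adjusted p = 0.472 unpaired and 0.175 with the block). Fgf2 (ENSMUSG00000037225, chromosome 3, 37348346 to 37410108, plus strand) was at 33.7, 34.0, 19.9 and 29.2 CPM in libraries 1 to 4 of PDGFRα- cells and 31.6, 25.5, 17.6 and 27.8 CPM in libraries 1 to 4 of PDGFRα+ cells. The ranges overlap almost fully, although the PDGFRα+ library was slightly lower in each pair. A log2 fold change of -0.19 ± 0.25 (SE) did not pass the test (edgeR adjusted p = 0.971), and its 95% interval spanned -0.73 to 0.35. Number 3 had the lowest Fgf2 level of both groups. Exons of Fgf2 share 640 bases with Nudt6 on the other strand, which stood at 4.94 ± 2.21 and 5.67 ± 2.69 CPM.

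Fgf18 and Fgf9 belong to separate subfamilies of ligands that bind mainly c splice forms. Fgf18 (ENSMUSG00000057967, chromosome 11, 33117430 to 33147400, minus strand) was at 9.53, 7.04, 14.0 and 11.2 CPM in PDGFRα- and 13.3, 1.39, 11.1 and 12.8 CPM in libraries 1 to 4 of PDGFRα+ cells. PDGFRα+ library 2, the highest for Fgf10, was the lowest for Fgf18, with 34 counts, and the other 3 lay within the PDGFRα- range. Its log2 fold change, -0.11 ± 0.53 (SE, edgeR adjusted p = 0.995), came to 0.25 without PDGFRα+ library 2 (edgeR adjusted p = 0.999). Fgf9 (ENSMUSG00000021974, chromosome 14, 58070547 to 58112720, plus strand) was the least abundant member, with 39, 14, 4 and 31 counts in PDGFRα- and 12, 1, 3 and 47 counts in libraries 1 to 4 of PDGFRα+ cells. These counts correspond to 1.59, 0.70, 0.31 and 1.56 CPM and to 0.34, 0.04, 0.10 and 3.49 CPM, so that 1 PDGFRα+ library stood above every PDGFRα- library and the others near or below the lowest. The 95% interval of its log2 fold change (-0.10) ran from -3.03 to 2.83 (edgeR adjusted p = 0.998). With the block it came to -1.61 ± 1.55 (SE, edgeR adjusted p = 0.792), by limma-voom -1.99 (adjusted p = 0.755) and without PDGFRα+ library 4 -2.64 (edgeR adjusted p = 0.734), so that its size and direction are not settled by these libraries. Fgf9 is known to be expressed by mesothelium. The 5 mesothelial markers summed to 13.9 CPM in PDGFRα+ library 4, against 0.33 to 1.13 CPM in the other PDGFRα+ and 1.46 to 3.77 CPM in the PDGFRα- libraries. Wt1 made up 10.2 CPM of that sum and Upk3b 3.05 CPM, the highest level of either in any library, while Msln, a defining marker, was at 0.22 CPM there and 0 in the other 7 libraries. The remaining markers were not highest in PDGFRα+ library 4. Krt19 was at 0.45 CPM there and reached 1.41 CPM in PDGFRα- library 2, and Lrrn4 was at 0 there. The part of mesothelial cells in the Fgf9 values was not tested.

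Hgf (ENSMUSG00000028864, chromosome 5, 16553495 to 16620152, plus strand) was at 37.0, 42.3, 50.1 and 31.5 CPM in libraries 1 to 4 of PDGFRα- cells and at 55.6, 79.2, 76.2 and 57.2 CPM in libraries 1 to 4 of PDGFRα+ cells. All PDGFRα+ libraries were above all PDGFRα- libraries, by a small margin between PDGFRα- library 3 and PDGFRα+ library 1. The means were 40.2 ± 7.92 and 67.0 ± 12.4 CPM, 1.67-fold higher in PDGFRα+ cells. With the block Hgf rose with a log2 fold change of 0.74 ± 0.16 (SE, edgeR adjusted p = 0.0198). The unpaired fit gave the same size with a wider error, 0.74 ± 0.20 (SE, edgeR adjusted p = 0.239), and the blocked adjusted p was 0.05001 to 0.106 when any 1 number was left out, over the threshold each time. Met, the gene of the HGF receptor, was low and uneven, at 2.85 to 8.99 CPM in PDGFRα- and 0.29 to 15.2 CPM in PDGFRα+ libraries (log2 fold change 0.64 ± 0.80 SE, edgeR adjusted p = 0.970). Exons of Hgf share 484 bases with Gm43489 on the same strand, which had 0 counts in every library.

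The 250 bases before the RefSeq start of the 3 genes called with the block are shown, since these genes lay higher together in PDGFRα+ cells. Sequences are from RefSeq (GRCm38.p6), 5′ to 3′ on the gene's strand, and 7 of the 9 genes had an entry, Hgf with a pair of starts, of which the upstream one is shown. Capitals mark the forkhead core TGTTTAC or its reverse complement GTAAACA.
Fgf10, chr13:118714449-118714698, plus strand: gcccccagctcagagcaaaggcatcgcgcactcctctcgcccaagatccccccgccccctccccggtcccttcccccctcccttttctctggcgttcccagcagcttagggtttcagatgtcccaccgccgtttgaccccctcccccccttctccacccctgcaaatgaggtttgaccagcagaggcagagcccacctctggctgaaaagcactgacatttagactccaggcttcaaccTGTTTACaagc
Hgf, chr5:16553245-16553494, plus strand: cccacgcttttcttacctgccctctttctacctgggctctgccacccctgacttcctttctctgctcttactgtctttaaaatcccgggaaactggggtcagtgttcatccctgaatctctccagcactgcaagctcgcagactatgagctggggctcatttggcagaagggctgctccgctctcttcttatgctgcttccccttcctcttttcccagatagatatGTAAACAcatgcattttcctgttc
Fgfr2, chr7:130266809-130267058, minus strand: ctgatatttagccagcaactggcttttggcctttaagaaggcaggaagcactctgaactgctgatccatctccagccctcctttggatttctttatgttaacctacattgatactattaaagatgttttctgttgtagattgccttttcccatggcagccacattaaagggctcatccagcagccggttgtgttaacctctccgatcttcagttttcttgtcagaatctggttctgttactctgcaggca
The forkhead core occurred in the Fgf10 window, starting 11 bases before the gene start, and in the Hgf window, starting 24 bases before it, and was not found in those of Fgfr2 and Fgf7. Of all 32851 windows of this length among the RefSeq entries, 3.17% hold it on either strand. The windows of Fgf2, Fgf9 and Fgf18 and of the other Hgf start were not read by gene. Called members were thus not compared with the remaining ones, apart from Fgf7. The other motifs searched on both strands, with no overlap rule between motifs, were the T-box site AGGTGTGA (1.12% of windows), the GLI site GACCACCCA (0.225%), the AP-1 site TGANTCA (6.75%), the NF-κB consensus site (0.14%) and the TATA box TATAAA (12.4%), and the 4 windows of Fgf10, Hgf, Fgfr2 and Fgf7 held none of these. The windows differed in base composition, with 61.2% G or C in Fgf10, 50.8% in Hgf, 44.0% in Fgfr2 and a median of 52.4% over all windows. No annotated GENCODE exon overlaps them, although the Fgf10 and Fgfr2 windows lie inside their genes' GENCODE spans, which start further upstream.

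Per length, the receptors were the most abundant members in both fractions, and their order differed between them. As CPM per kilobase of merged exon, Fgfr1 led in PDGFRα- cells at 28.8 ± 1.65, followed by Fgfr2 at 18.9 ± 1.77, Fgf7 at 16.4 ± 3.95, Fgf18 at 8.78 ± 2.45, Hgf at 5.60 ± 1.10 and Fgf2 at 4.31 ± 0.97. Fgf1 (1.09 ± 0.54), Fgf10 (0.67 ± 0.31) and Fgf9 (0.22 ± 0.14) followed. On this scale Fgfr2 and Fgf7 overlapped, as did Fgf7 with Fgf18, Fgf18 with Hgf, Hgf with Fgf2, and Fgf1 with Fgf10, while the values of Fgfr1 and Fgfr2 did not. In PDGFRα+ cells Fgfr2 led at 38.9 ± 5.70 CPM per kilobase, then Fgfr1 at 29.5 ± 2.56, Fgf7 at 11.2 ± 4.35, Hgf at 9.33 ± 1.72, Fgf18 at 8.14 ± 4.71, Fgf2 at 3.77 ± 0.87, Fgf10 at 3.31 ± 1.59, Fgf1 at 2.36 ± 0.46 and Fgf9 at 0.21 ± 0.36. There the lowest Fgfr2 value, 32.7, lay just above the highest Fgfr1 value, 32.6, and neighbours from Fgf7 down to Fgf1 overlapped. These levels depend on the annotated exon length, 10328 bases for Fgfr2 and 9875 for Fgfr1.

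Ratios within a library do not depend on its scaling. They were chosen after the values were seen and are given with no test. The ratio of Fgfr2 to Fgfr1 per length was 0.54, 0.64, 0.69 and 0.77 in libraries 1 to 4 of PDGFRα- cells and 1.08, 1.42, 1.41 and 1.37 in libraries 1 to 4 of PDGFRα+ cells, below 1 in each of the former and above 1 in each of the latter. The ratio of Fgf10 to Fgf7 was 0.02 to 0.07 in PDGFRα- libraries and 0.14, 0.69, 0.28 and 0.26 in libraries 1 to 4 of PDGFRα+ cells. Fgf7 thus stayed the more abundant of these FGFR2b ligands in all 8 libraries. The ratio of Fgf1 to Fgf2 was 0.10 to 0.42 and 0.49 to 0.82, again without overlap and always under 1.

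**Figure D3:**
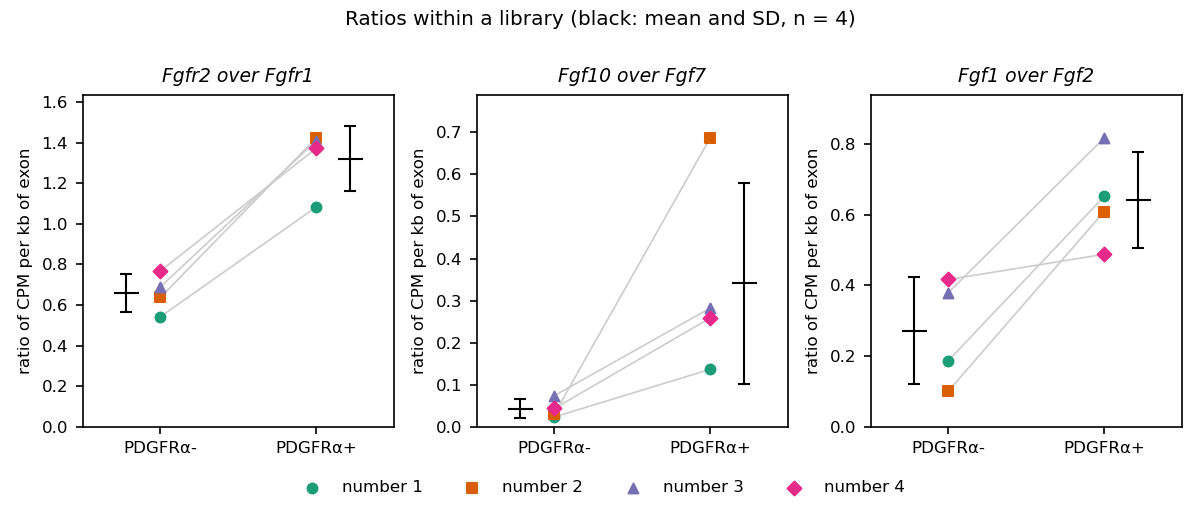
Ratios of levels (CPM per kilobase of exon) within each library for 3 gene pairs, with linear axes from 0, grey lines between libraries of the same number and black bars for the mean and SD of 4 libraries. The Fgfr2 to Fgfr1 ratio lies between 0.54 and 0.77 in PDGFRα- and between 1.08 and 1.42 in PDGFRα+ libraries.

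Beyond the 9 genes, a list of 58 FGF and HGF pathway genes was followed, of which 43 were tested. Without the block 0 were called, with 5 higher and 1 lower at an unadjusted p under 0.05 (edgeR; DESeq2 called 1 and limma-voom 0), where 3.73% of all genes were higher and 3.22% lower at that level. With the block 1 of 43 was called higher, Spry1, and 1 lower, Flrt2, where 1.34% of all genes were called higher and 0.933% lower. Over the 43 genes the median log2 fold change came to 0.14.

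The feedback inhibitors leaned to one side. All 8 tested members had positive log2 fold changes, with a median of 0.48 against -0.01 over all genes, of which 7682 of 15643 were positive. In 6 of the 8 the PDGFRα+ library was the higher one in all 4 same-numbered pairs, which held for 10.3% of all genes. Spry1, a Sprouty gene, was at 21.7, 20.2, 12.3 and 41.6 CPM in PDGFRα- and 55.3, 55.3, 49.2 and 80.0 CPM in libraries 1 to 4 of PDGFRα+ cells. No PDGFRα- library reached the lowest PDGFRα+ library, and number 4 was the highest in both groups. Spry1 rose with the block (log2 fold change 1.43 ± 0.20 SE, edgeR adjusted p = 0.00078) and did not pass edgeR without it (1.32 ± 0.32 SE, edgeR adjusted p = 0.150). Without the block DESeq2 called Spry1 (adjusted p = 0.0195) and limma-voom did not (adjusted p = 0.0933). Spred1 was at 91.2 ± 13.5 and 133 ± 29.0 CPM, Spred2 at 79.1 ± 7.36 and 101 ± 6.85 CPM, and Spry2 at 55.2 ± 19.3 and 73.7 ± 11.0 CPM. None of these 3 passed with the block (edgeR adjusted p = 0.0602, 0.229 and 0.165). DESeq2 with the block also called Spred1 and Spry4 (adjusted p = 0.0254 and 0.0417). Spry4, named after its values were seen, was at 27.8 ± 10.4 and 44.2 ± 3.39 CPM (blocked edgeR adjusted p = 0.0819). These inhibitors also act below receptor tyrosine kinases other than FGF receptors.

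**Figure D4:**
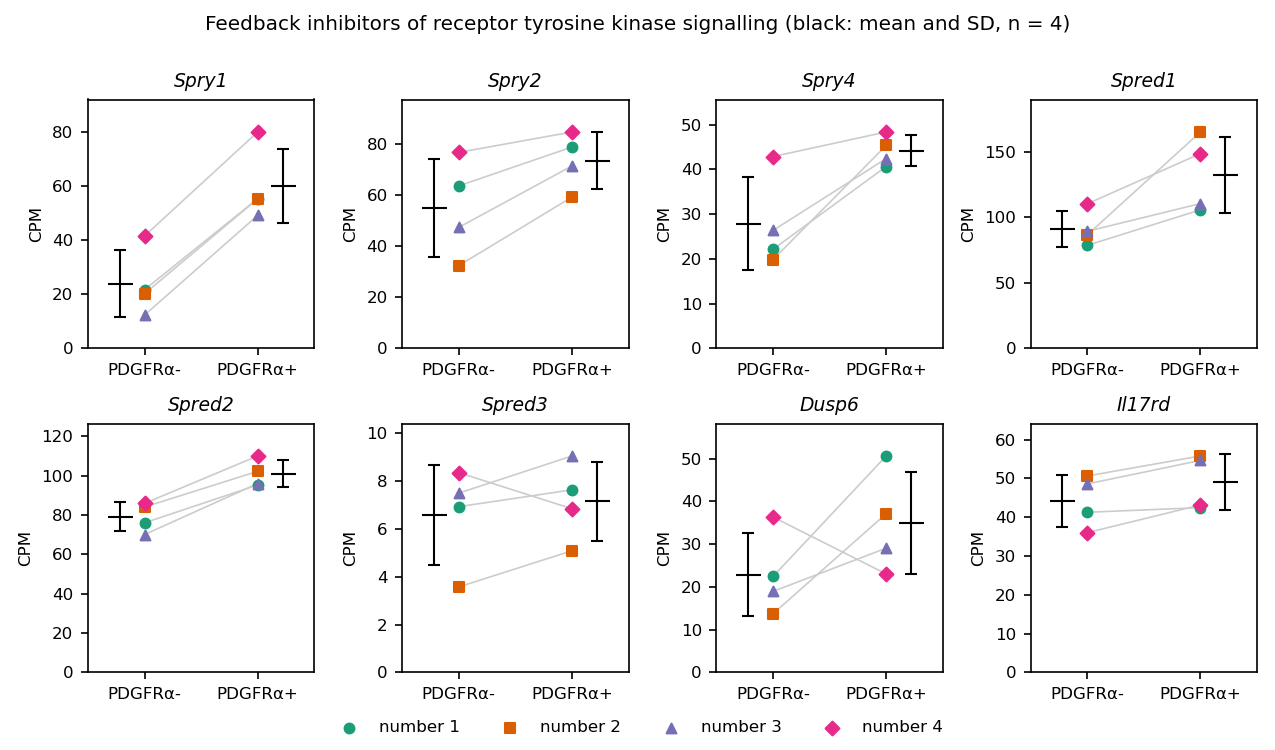
CPM of the 8 tested feedback inhibitor genes in each library, on linear axes from 0, with grey lines between libraries of the same number and black bars for the mean and SD of 4 libraries. Spry1 and Spred2 show no overlap between the fractions, whereas Spred3, Dusp6 and Il17rd overlap widely.

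The ETS transcription factor genes, common targets of FGF signalling, were low. Etv1 was at 6.76 ± 3.28 and 15.6 ± 8.19 CPM, Etv5 at 5.76 ± 2.94 and 9.49 ± 1.70 CPM and Etv4 at 0.27 ± 0.22 and 0.98 ± 0.88 CPM, none past either test (lowest blocked edgeR adjusted p = 0.203). The adaptor genes couple the receptors to RAS. Of 8 tested adaptors 0 were called in either edgeR fit and 0 had an unadjusted p under 0.05 (0 of them also by DESeq2 and limma-voom). Ptpn11, the gene of the phosphatase SHP2, was at 93.6 ± 9.80 and 109 ± 6.23 CPM, Gab1 at 73.0 ± 17.4 and 77.1 ± 9.32 CPM, and Sos1 at 69.8 ± 14.9 and 65.5 ± 7.64 CPM. The least abundant, Frs3, was at 1.07 ± 0.87 and 1.93 ± 1.04 CPM (edgeR adjusted p = 0.974).

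Among genes of proteins that bind FGFs or their receptors, Flrt2, which encodes a transmembrane protein that interacts with FGF receptors, was at 72.5, 104, 112 and 109 CPM in PDGFRα- and 58.5, 42.1, 58.8 and 80.5 CPM in libraries 1 to 4 of PDGFRα+ cells. It was lower in the PDGFRα+ library of all 4 pairs, with overlap between PDGFRα- library 1 and PDGFRα+ library 4. It fell with the block (log2 fold change -0.74 ± 0.17 SE, edgeR adjusted p = 0.0291) and did not pass without it (-0.73 ± 0.21 SE, edgeR adjusted p = 0.280). Its relative Flrt3 was at 32.8 ± 8.38 and 26.6 ± 13.6 CPM and Flrt1 at 2.00 ± 1.86 and 0.59 ± 0.59 CPM, not past either test. Of 16 further FGF ligand genes 8 were tested and 0 called in either edgeR fit, with 0 also at an unadjusted p under 0.05 (0 also by DESeq2 and limma-voom). Fgf14, an intracellular FGF homologous factor, was at 25.9 ± 13.9 and 16.0 ± 14.1 CPM, the hormone gene Fgf23 at 10.6 ± 5.01 and 7.90 ± 4.25 CPM, and Fgf13 at 10.0 ± 4.41 and 7.05 ± 2.40 CPM. Of the genes that govern HGF activation, the plasminogen activator genes were measured, Plat at 61.2 ± 21.7 and 79.0 ± 29.4 CPM and Plau at 10.2 ± 3.78 and 4.999 ± 3.96 CPM. Neither passed either test, nor did Mst1r, the gene of a receptor related to MET (37.8 ± 11.6 and 31.3 ± 2.75 CPM). Its ligand gene Mst1 reached at most 1.00 CPM in a library.

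All 7 fibroblast markers were detected, summing to 65528 to 95164 CPM in PDGFRα- and 46370 to 64577 CPM in PDGFRα+ libraries. The marker lists of other cell types summed to 18.2 to 649 CPM (epithelium, 11 genes), 77.6 to 589 CPM (endothelium, 6 genes) and 13.7 to 45.1 CPM (leukocytes, 6 genes) in PDGFRα- libraries. The same sums ranged over 23.6 to 65.8, 60.6 to 166 and 9.87 to 23.2 CPM where PDGFRα was sorted as positive. The highest epithelial sum was that of PDGFRα- library 2, where Lyz1 alone was at 571 CPM. Lgr4 alone was at 20.6 to 34.2 CPM in PDGFRα+ libraries. The highest endothelial sum was that of PDGFRα- library 4, against at most 139 CPM in the others of its group. Only 7 of 11 epithelial, 6 of 6 endothelial and 5 of 6 leukocyte genes passed the low count filter and were tested by edgeR. Lyz1 was not among them. No tested gene of these 3 lists passed the threshold in either edgeR fit. DESeq2 with the block called Krt8, Lyve1, Tek and Kdr (adjusted p = 0.0005, 0.0093, 0.0246 and 0.0341), where 4.59% of all genes passed. All of them were lower in the PDGFRα+ library of all 4 pairs. The other endothelial genes Pecam1, Cdh5 and Vwf were higher there in 2, 2 and 3 of 4 pairs. Of the other epithelial genes, Lgr4 was higher there in 3 of 4 pairs, Krt18 and Krt20 in 2, Vil1, Lgr5, Muc2 and Chga in 1, and Epcam, Cdh1 and Lyz1 in 0. Of the markers of stromal subsets, 7 fibroblast, 5 trophocyte, 5 telocyte and 5 pericyte genes were tested. Among them 9 passed the edgeR test blocked on replicate number, where 2.27% of all genes passed. The edgeR test on group alone called 0, against 0.243% of all genes. DESeq2 without the block called 7 of the 9, Cd81, Grem1, Bmp5, Cspg4, Abcc9, Dpt and Col1a2 (adjusted p from 0.0033 to 0.0482), against 1.52% of all genes. DESeq2 with the block also called the fibroblast gene Dcn (adjusted p = 0.0076), lower in the PDGFRα+ library of all 4 pairs. The fibroblast genes Col1a1, Col1a2 and Dpt fell (blocked edgeR adjusted p = 0.0155, 0.0137 and 0.0138). Of 5 markers of trophocytes, which are crypt-base fibroblasts, 3 fell: the BMP antagonist gene Grem1 from 1061 ± 209 to 534 ± 180 CPM, Cd81 from 135 ± 22.5 to 69.3 ± 19.4 CPM and the R-spondin gene Rspo3 from 126 ± 25.5 to 75.7 ± 22.8 CPM (blocked edgeR adjusted p = 0.0006, 0.0007 and 0.0348). The trophocyte list summed to 1545 to 2192 CPM in PDGFRα- and 960 to 1397 CPM in PDGFRα+ libraries. Of 6 markers of telocytes, which are subepithelial fibroblasts, the BMP ligand gene Bmp5 rose from 20.4 ± 8.82 to 59.1 ± 26.7 CPM (blocked edgeR adjusted p = 0.0021), Foxl1 was at 0 in all libraries, and the list summed to 97.9 to 104 and 93.9 to 168 CPM. Wnt5a of the same list was at 35.0 ± 5.11 and 24.8 ± 3.96 CPM, lower in the PDGFRα+ library of all 4 pairs (blocked edgeR adjusted p = 0.285). The other telocyte markers, Sox6, F3 and Bmp7, overlapped between the groups and did not pass. Of 5 pericyte markers Abcc9 fell and Cspg4 rose (blocked edgeR adjusted p = 0.0053 and 0.0402), with sums of 826 to 1597 and 687 to 1240 CPM. Smooth muscle markers summed to 264 to 1317 and 294 to 892 CPM, and those of interstitial cells of Cajal to 7.12 to 33.2 and 13.8 to 37.4 CPM. Those of enteric glia and neurons summed to 1.99 to 17.7 and 1.02 to 5.47 CPM. Of these lists 5 of 5, 3 of 3 and 2 of 7 genes were tested, with 0 called in either edgeR fit. DESeq2 with the block called Kit, Ano1 and Actg2 of these lists (adjusted p = 0.0115, 0.0392 and 0.0479). Each was lower in the PDGFRα+ library of all 4 pairs. The remaining Cajal gene, Etv1, went the other way, from 6.76 ± 3.28 to 15.6 ± 8.19 CPM, higher in 3 of 4 pairs, and passed neither edgeR test. Etv1 made up 19.5 of the 19.9 CPM of the Cajal sum in PDGFRα+ library 1. The other smooth muscle genes Myh11, Des, Cnn1 and Tagln were higher in the PDGFRα+ library of 2, 1, 1 and 3 of 4 pairs. The part of such cells in the values of the 9 genes was not tested.

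The genes whose pattern over the 8 libraries was most like that of a member were sought among genes with a mean of at least 20 CPM, by the root mean square difference of centred log2 CPM. Closest to Fgf10 were Fhl2, a LIM-domain gene (difference 0.34), and Tbx2, a T-box transcription factor gene (0.38), against an SD of 1.33 for Fgf10 itself. Fhl2 was at 26.6 ± 8.5 and 111 ± 41.6 CPM and Tbx2 at 18.0 ± 4.0 and 66.2 ± 29.8 CPM, both highest in PDGFRα+ library 2 as Fgf10 was. Both were picked from 6249 candidates for likeness over these same libraries, so the shared peak is not separate evidence. Closest to Fgfr2 were the teneurin gene Tenm4 (0.14) and Rab31, a gene of a RAB GTPase (0.16), and closest to Hgf the collagen gene Col15a1 (0.15) and Wfdc1 (0.17). Fgf1 lay nearest to the BMP ligand gene Bmp6 (0.34) and Ahi1 (0.34), and Fgf7 to Adamtsl3 (0.11) and Nmd3 (0.15). Fgfr1, with an SD of only 0.10, was nearest to Mxd4 (0.06) and the ribosomal protein gene Rpl4 (0.07), and Fgf2 to Sec22b (0.10) and Angptl4 (0.12). Fgf18 lay nearest to the AP-1 gene Fosl1 (0.36) and Gm16486 (0.37), and Fgf9 less closely to Capn6 (0.79).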

How the data were processed

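RNA from sorted cells was made into libraries with a kit for low-input, strand-marked total RNA (SMARTer Pico) and sequenced on an Illumina NextSeq, per the labels' protocols. The submitters' processing notes list GRCm38 (mm10), STAR 2.7.3a, cutadapt 3.4, DESeq2 and featureCounts 2.0.1, with no parameters. Strand setting and gene models are not stated there. The authors deposited raw read counts per gene and library, which were tested. They also deposited counts divided by size factors and rounded, a score that was not tested, and, for each gene, a p-value with its adjusted form, a ratio between the groups and its log2.

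The main test was edgeR 4.0.16 (R 4.3.3) quasi-likelihood, robust, with TMM, filterByExpr (15643 genes) and group alone, with Benjamini-Hochberg adjustment over all tested genes and a threshold of 0.05. SE is the log2 fold change over the square root of F. DESeq2 1.42.0 and limma 3.58.1 (voom), a block for the replicate number, other filters and left-out libraries were alternatives. Numbers were taken from the titles. Deviations of same-numbered libraries correlated at 0.23, 0.18, 0.02 and 0.25, which alone do not establish pairing. Yet for 7 of the 8 libraries the highest correlation was with the library sharing its number. A test of the replicate number was passed by 669 genes. These values point to a shared effect of the number but do not show that equal numbers mark shared animals. The authors' dispersions, a deposited score, differed by at most 0.000873% from a DESeq2 model with the number, over 29254 genes, and by up to 7500% from one with group alone. No libraries were identical (chi-square per degree of freedom 38.7 to 169 between pairs). Exons and lengths came from GENCODE M21 (GRCm38). The code was tested on simulated data with known changes.

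The members, lists and tests were chosen with earlier results of these data known. All members were named. Of the pathway list, genes called in either edgeR fit, the 3 most abundant per subgroup and the receptors were named, except that some items are not reported here. Marker lists of 11 cell types are given as summed CPM. The count floor covers counting error only, since amplified reads may be copies of a molecule.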

Additional observations from a re-analysis of the deposited data

Results flagged for a closer look

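In a group of 4 libraries, a value was singled out when its gap to the next relative to the group's range exceeded Dixon's 95% critical value. Of 104 gene and group combinations checked, 8 were singled out, where chance gives about 1 in 20. Of the members, Fgf7 was high in PDGFRα+ library 1 (57.5 CPM, others 26.9 to 31.5), and Fgf9 was high in PDGFRα+ library 4 (3.49 CPM, others 0.04 to 0.34). Fgf10 was high in PDGFRα- library 3 (5.22 CPM, others 2.16 to 2.66) and in PDGFRα+ library 2 (26.1 CPM, others 11.1 to 12.6). Of the pathway genes, Fgf11 was high in PDGFRα- library 2 (8.15 CPM, others 4.32 to 4.92), and St14, a membrane protease gene, in PDGFRα- library 3 (2.50 CPM, others 1.16 to 1.36). The adaptor gene Grb2 was high in PDGFRα+ library 4 (51.0 CPM, others 41.7 to 42.9). Cbl, the gene of a ubiquitin ligase for receptor kinases, was high in PDGFRα+ library 2 (76.3 CPM, others 40.2 to 45.7).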

How the results depend on the processing

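The counts of calls depended on the model. With the replicate block 355 genes were called instead of 38, and 3 of the 9 members and 2 pathway genes instead of 1 and 0. Without the low count filter the counts were 277, 2 and 2, with DESeq2 270, 2 and 1, and with DESeq2 and the block 795, 3 and 4. Leaving out 1 library gave 7 to 49 calls over all genes (7 without PDGFRα- library 3, 49 without PDGFRα+ library 4), 0 or 1 among members and 0 or 1 among pathway genes. With the block, leaving out numbers 1 to 4 gave 196, 281, 99 and 300 calls, 1 to 2 among members and 1 to 3 among pathway genes. The cause was not tested. Of the libraries, 7 of 8 correlated best with their own number. The log2 fold changes of Fgf1, Fgf2, Fgf7, Fgf10, Fgfr2 and Hgf kept their direction in all 18 alternatives run, with ranges of 1.92 to 2.69 for Fgf10, 0.94 to 1.12 for Fgfr2 and 0.64 to 0.86 for Hgf. The small values of 3 members changed sign when a library or number was left out, with ranges without 1 library of -2.64 (without PDGFRα+ library 4) to 0.31 for Fgf9, positive in 5 alternatives, of -0.30 to 0.25 for Fgf18 and of -0.020 to 0.082 for Fgfr1. With the block and without number 2, Fgf18 was at 0.12 and Fgfr1 at -0.020. With the block and without number 4, Fgf9 gave no value. Fgf9 had 1 to 47 counts per library, where 3 counts correspond to 0.09 to 0.23 CPM, and came to -1.61 with the block, -1.68 by DESeq2 with the block and -1.99 by limma-voom. For the alternatives in tool, scaling, filter and block, the median per-gene shift in log2 fold change from the main fit was -0.014 to 0.013.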
